A study of Mus musculus with 6 samples.

Results

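The 4298 features described here are array probes for intergenic noncoding RNA regions of the mouse autosomes. They were chosen by name and by detection: a feature name that gives a chromosome and a region in place of a gene, and a signal well above background on all 5 arrays with scanner files. The array carried 15617 such region probes in 3390 regions, so the members were 27.5% of the probes, and they covered 1879 regions (55.4%). The choice used the signal on the arrays, and each signal level below is therefore a description. It did not use the genotype contrast itself, but signal was required on WT and c-Maf KO arrays alike. A region RNA at background in either genotype was thus left out, so the members cannot show its full loss or gain. Detection was read on 3 WT and 2 c-Maf KO arrays, so c-Maf KO replicate 1 was not screened for it. By strand suffix, 2091 members were forward and 2202 reverse, and 5 members of 1 region on chromosome 17 carried no suffix. The probes are 60 bases long, and several probes of 1 region report on the same stretch of the genome, so members are not replicates.

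The samples were macrophages that the labels call polarized M2-like BMM, grown with M-CSF, the main growth factor of macrophages, at 10 ng/ml, added daily from day 4. The cells came from fetal liver chimeric mice of WT or c-Maf KO genotype. There were 3 samples of each, and M-CSF was common to both. c-Maf, encoded by Maf, is a transcription factor of the large Maf family that macrophages use. A chimera keeps host cells, the strain and age are not given, and no label says whether samples of a group came from separate mice, so p-values measure only the spread between these samples. Scanner files of c-Maf KO replicate 1 were not analysed here, and its values come from the deposited value table. Total RNA was hybridised on a 1-colour array, 27228 to 28145 probes per array were well above background. Precision is set by how few arrays there are.

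Mammalian genomes are transcribed well beyond their protein-coding genes, and many of the resulting long noncoding RNAs are nuclear, spliced or not, and present at low level. Some act at the place of their synthesis, as imprinted antisense RNAs do, and some build nuclear bodies. Region probes of this kind tile stretches with evidence of such transcription on one or both strands, and by design they ask whether RNA is present, not which gene made it.

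The labels were checked first. The Maf probe on chromosome 8 (118227736 to 118227795) stood at 1.92, 1.98 and 2.03 in WT and at -2.22, -2.36 and -1.92 in c-Maf KO (log2 ratio in the value table), a difference of -4.14 ± 0.12 (SE, n = 3 and 3; limma adjusted p = 0.000832). The deleted part of Maf is not stated in the labels, so whether the probe lies in it is unknown. Of 17 macrophage markers 16 were tested and detected, with Csf1r, the M-CSF receptor, at 9.21 above the 75th percentile of its array (log2). The tissue label is liver. Of the 8 genes of the hepatocyte list 3 were tested, Trf, Afp and Serpina1a, at levels of 8.29, 1.98 and -3.94. Trf and Afp were detected on all 5 arrays, and the albumin gene Alb was not among the tested probes. All scanned arrays shared 1 slide, with all WT arrays in one row and all c-Maf KO arrays in the other, and an effect of the row cannot be told apart from genotype. Xist, the noncoding RNA of the inactive X chromosome, was chosen for mention after its values were seen: it was well above background on 3 of 3 WT arrays and on 1 of 2 c-Maf KO arrays (probe A_52_P113537). Its log2 ratios were 2.66, 1.28 and 2.92 in WT and -1.33, -3.26 and -1.28 in c-Maf KO (limma adjusted p = 0.156). The Y-linked Eif2s3y stood at -0.96, -0.11 and -1.10 in WT and at 0.39, 0.11 and 0.15 in c-Maf KO (adjusted p = 0.29). Ddx3y overlapped between groups, with WT replicate 2 at 0.02 and c-Maf KO replicate 1 at -0.02. Uty probe A_52_P345539 separated the groups and Uty probe A_55_P2134967 did not. Xist signal therefore moved with genotype and Y-linked signal did so only in part, and their part in the results below was not tested.

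The probes with the brightest signal and with the largest genotype differences are shown first as sequences (5′ to 3′, mm9 positions from the array's files), because they say what some members can bind. In the first set the capitals mark the longest run shared with a probe for a named gene.
chr17:39982023-39983277_F: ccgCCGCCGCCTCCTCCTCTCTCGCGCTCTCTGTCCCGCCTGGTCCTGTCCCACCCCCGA
chr7:108209996-108216032_R: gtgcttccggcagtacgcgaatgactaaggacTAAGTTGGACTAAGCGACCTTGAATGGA
chr11:22681800-22707775_R: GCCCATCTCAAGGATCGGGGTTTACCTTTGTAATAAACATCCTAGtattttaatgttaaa
The first shares 57 bases with a probe for Rn45s, the ribosomal RNA precursor. The second shares 28 bases with a probe for Rps29 and the third 45 bases with a probe for Rps16, both genes of small ribosomal subunit proteins. The 2 brightest members shared no run of 25 bases with a gene probe.
chr8:48476637-48492537_F: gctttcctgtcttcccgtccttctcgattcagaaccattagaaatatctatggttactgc
chr6:83368261-83407280_F: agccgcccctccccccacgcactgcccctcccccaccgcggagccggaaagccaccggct

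In the next set, 3 probes of the reverse strand on chromosome 15 overlap, and the capitals mark the 15 bases all of them hold.
A_30_P01029468: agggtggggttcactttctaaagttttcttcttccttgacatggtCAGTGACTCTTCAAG
A_30_P01019643: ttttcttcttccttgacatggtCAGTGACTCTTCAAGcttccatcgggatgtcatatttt
A_30_P01033043: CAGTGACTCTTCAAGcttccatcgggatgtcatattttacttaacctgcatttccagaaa
They are named for the near-identical regions chr15:32167516-32174417 and chr15:32167516-32174427. The members with the largest differences in either direction were single probes.
chr3:95502970-95503399_R: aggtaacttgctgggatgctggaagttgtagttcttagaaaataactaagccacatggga
chr6:83367433-83370986_R: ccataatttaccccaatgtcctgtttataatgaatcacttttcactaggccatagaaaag
The region on chromosome 10 gave a pair of neighbouring members, both lower in c-Maf KO.
A_30_P01028471: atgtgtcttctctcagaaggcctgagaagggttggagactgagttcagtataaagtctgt
A_30_P01023693: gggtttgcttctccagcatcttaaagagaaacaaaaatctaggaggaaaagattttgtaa

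Most members were dim. Relative to the 75th percentile of its array, the mean signal of a member ran from -4.01 to 8.82 with a median of -1.83 (log2), and 981 members (22.8%) lay above 0. Probes outside the set that were detected on all 5 arrays had a median of 0.73. A probe's brightness also depends on its sequence, so these levels order probes and not RNAs. On the whole array 60.2% of the autosomal region probes were above background on no array, against 34.0% of probes for protein-coding RefSeq genes and 65.9% of probes for RefSeq long noncoding RNAs (lncRNAs). The dimmest members show where the rule stops. The lowest, on chr2:154235540-154248551_R, stood at -4.04, -3.98 and -3.98 on the WT arrays and at -3.85 and -4.21 on the c-Maf KO arrays. The next, on chr6:31017987-31174287_F, stood at -4.15, -3.92, -4.05, -3.86 and -4.04 in the same order. The brightest probes left out, above background on 4 arrays, were on chr17:32213375-32238425_F, at -2.43, -2.51, -2.63, -2.47 and -4.89, and on chr16:44717531-44724206_F, at -3.11, -2.94, -3.95, -2.23 and -3.16. Each of these had been kept out by 1 array.

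Only 43 members in 35 regions had a mean level above 6. The brightest, on chr8:48476637-48492537_F (probe at 48484736 to 48484795), stood at 8.81, 8.84 and 8.81 in WT and at 8.86 and 8.77 in c-Maf KO. In the value table its c-Maf KO minus WT difference was 0.04 ± 0.07 (SE; 95% interval -0.13 to 0.21). The second, on chr6:83368261-83407280_F (83406215 to 83406274), stood at 8.75, 8.65 and 8.52 in WT and at 8.66 and 8.51 in c-Maf KO, with a difference of -0.03 ± 0.08. The groups overlapped for both. The probe on chromosome 17 that shares 57 bases with the Rn45s probe stood at 8.75, 8.61 and 8.52 in WT and at 8.56 and 8.47 in c-Maf KO, with a difference of -0.08 ± 0.08. The other 3 of the 8 brightest that shared no run with a named gene were on chr14:78924115-78938125_F, chr17:17481706-17482457_R and chr12:73838608-73862621_R, with differences of -0.08, 0.05 and -0.08. No member of the 8 brightest separated the genotypes.

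A run of at least 25 bases in common with a gene probe occurred in 161 members (3.75%), and in 54 of them the match was only to the reverse complement of the gene probe, which would not pair with the RNA that the gene probe detects. The share was 6.70% in the brightest 1075 members and 2.23% in the dimmest 1075. In 57 members the gene probe lay on another chromosome or over 1 Mb away, 36 of them with reverse-complement matches only and 21 with a match in the sense direction. Among the sense matches were members on chr2:167085700-167117795_R (31 bases, Rps16) and chr4:33364774-33364898_R (36 bases, Cox5b, a subunit of cytochrome c oxidase). Their differences of 0.04 and -0.0086 stood beside -0.0093 and -0.0041 for the gene probes. For these sense matches, signal from the region and from the gene's own RNA cannot be told apart.

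No member passed the test between genotypes. In the value table, limma with Benjamini-Hochberg adjustment over all 28280 tested probes called 0 of 4298 members, where 0.0212% of all tested probes were called, and on the 5 arrays 0 of 4297, where 0.0248% were called. One member lacked a measurement on 1 array. The lowest adjusted p was 0.12 in the value table and 0.19 on the arrays. At an unadjusted p under 0.05 the value table gave 457 members (10.6%) against 12.1% of all tested probes, and the arrays 372 (8.66%) against 10.5%. With a variance trend and robust fit, 3 members were called in each source, beside 0.177% and 0.435% of all tested probes. Averaging the members of a region and strand gave 2285 values, of which 0 were called (0.0228% of all features tested that way). These counts cover only probes detected on the arrays of both genotypes. Of 1085 autosomal region probes that were tested but were no members, 0 were called in the value table. Their largest difference was 2.53 in size, against 1.34 in members. They were dimmer (median level -3.98 against -1.83), and their median within-group SD was 0.41 against 0.16.

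The differences that were measured leaned to one side. Members were lower in c-Maf KO with no overlap between the 3 samples of each group in 503 cases (11.7%, all tested probes 9.26%) and higher in 139 cases (3.23%, all tested probes 10.2%). The median c-Maf KO minus WT difference of the members was -0.06 (quartiles -0.19 and 0.04), that of all tested probes -0.0038, and 2783 members (64.8%) lay below 0. Among members with an unadjusted p under 0.05, 365 were lower and 92 higher, while over all tested probes the split was 1725 to 1691. The median log2 ratio of the members was 0.0186, 0.0321 and 0.00837 in WT replicates 1, 2 and 3, and -0.0260, -0.00605 and -0.0321 in c-Maf KO replicates 1, 2 and 3. All c-Maf KO samples were below all WT samples by this median, by less than the quartile range within any sample. The corresponding medians of all tested probes were -0.00299, 0.00479, -0.00236, 0.0152, 0.00811 and -0.0200. In bulk RNA of this kind, fewer cells that carry an RNA and less of it per cell cannot be told apart.

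**Figure D1:**
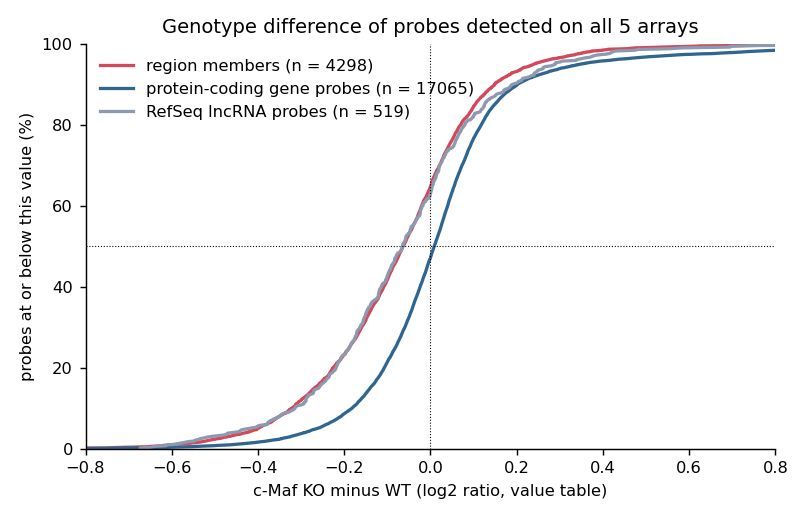
Cumulative share of probes (y axis, percent) at or below each c-Maf KO minus WT difference (x axis, log2 ratio in the value table) for 4298 region members, 17065 protein-coding probes and 519 RefSeq lncRNA probes, all detected on 5 arrays. The member curve crosses the middle at -0.06 and runs with that of the lncRNA probes, to the left of the protein-coding curve at 0.01.

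The lean was of the same sign in other noncoding classes on the array. RefSeq lncRNA probes detected on 5 arrays had a median difference of -0.06 (n = 519), with 9.06% lower and 4.82% higher without overlap. Region probes of chromosome X, which are no members, had -0.05 (n = 128), with 12.5% lower and 5.47% higher. Protein-coding probes detected on 5 arrays had 0.01 (n = 17065), with 9.08% lower and 12.7% higher. On the 5 arrays the medians were -0.06 for members, -0.06 for RefSeq lncRNA probes and -0.01 for protein-coding probes. The difference between classes itself was not tested.

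By signal level, members were split into 4 equal groups. From dimmest to brightest the median difference was -0.07, -0.09, -0.07 and -0.02. Other probes detected on all 5 arrays within the same ranges of level had -0.03, -0.03, -0.02 and 0.02. The share of members lower without overlap was 9.12%, 14.3%, 11.4% and 12%, and the share higher 2.88%, 2.51%, 3.45% and 4.09%. Within the same ranges the other probes had 7.76%, 8.89%, 9.69% and 8.85% lower and 7.55%, 9.80%, 11.1% and 13.4% higher. Levels were not matched inside a range, and the brightest, -0.20 to 8.82, held 1075 members and 12808 other probes. All 4 groups of members had more lower than higher cases. The median within-group SD of the members was 0.24 in the dimmest group and 0.11 in the brightest, where other probes had 0.08.

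**Figure D2:**
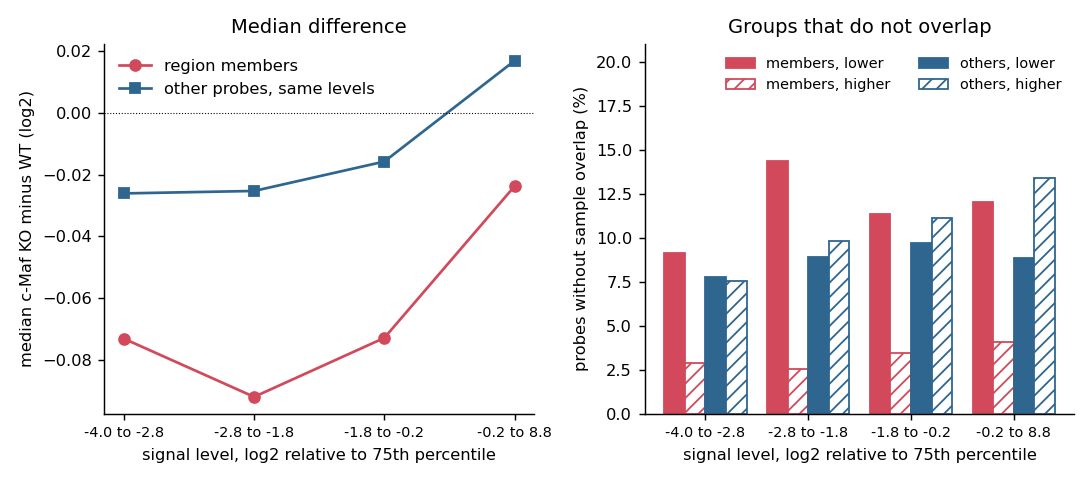
Left, median c-Maf KO minus WT difference (y axis, log2) in 4 groups of signal level (x axis, log2 relative to the 75th percentile of the array) for members (circles) and for other probes detected on 5 arrays (squares). Right, share of probes whose WT and c-Maf KO samples do not overlap, lower (filled) or higher (hatched) in c-Maf KO, where members exceed others only on the lower side.

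The sign of the median was the same on both strands and in all GC classes. Forward members had a median difference of -0.06 with 250 lower and 58 higher (12% and 2.77%), and reverse members -0.07 with 253 lower and 81 higher (11.5% and 3.68%), where all tested probes had 9.26% lower and 10.2% higher. Members with a GC share up to 40% had -0.09 (n = 962), those from 40 to 50% had -0.06 (n = 2019) and those over 50% had -0.05 (n = 1317). Other detected probes in the same GC classes had 0.01, 0.01 and 0.0005. Members and the other region probes had the same median GC share of 45%, with quartiles of 41.7% and 53.3% in members and 38.3% and 45% in the others. The motif AATAAA, the usual polyadenylation signal, searched on the probe strand alone, occurred in 4.09% of members and 3.84% of the other region probes, and in 15.2% of the detected protein-coding probes.

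By chromosome, the share of region probes that were members ran from 19.8% on chromosome 9 to 34.4% on chromosome 17. The median difference of the members was below 0 on all 19 autosomes, from -0.03 on chromosome 13 to -0.12 on chromosome 19, and each was below the median of the other tested probes there. Chromosome 17 had 49 members lower and 9 higher without overlap, of 311 (15.8% and 2.89%, other tested probes there 10.3% and 9.78%). Chromosome 11 had 30 lower and 2 higher, of 207 (14.5% and 0.966%, other probes 9.07% and 10.9%). Chromosome 13 had 14 lower and 6 higher, of 213 (6.57% and 2.82%, other probes 7.32% and 13.1%). On chromosome 19, 17 were lower and 4 higher (15.9% and 3.74%, other probes 8.43% and 11.4%), and other tested probes there had a median of -0.0050.

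**Figure D3:**
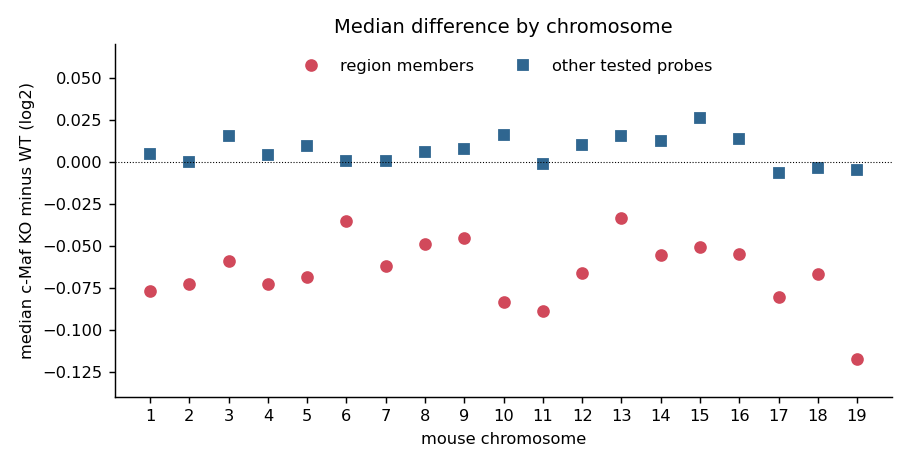
Median c-Maf KO minus WT difference (y axis, log2) on each mouse autosome (x axis) for members (circles) and for the other tested probes (squares). The members lie below 0 on all 19 autosomes, lowest at -0.12 on chromosome 19.

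The members with the largest differences were chosen for size, so their values are a description. The largest on the lower side was on chr6:83367433-83370986_R (83367944 to 83368003), 15201 bases from a same-strand probe of Tet3, an enzyme that oxidises methylated cytosine. Its log2 ratio was 0.28, 0.01 and 0.37 in WT and -0.81, -1.35 and -0.01 in c-Maf KO. The difference was -0.94 ± 0.33 (SE; 95% interval -1.76 to -0.12; limma adjusted p = 0.36). Replicate 3 of c-Maf KO lay just under the lowest WT sample. All 3 members of that region and strand were below 0, at -0.94 to -0.32 with a median of -0.69, and the Tet3 probe itself had -0.31 (adjusted p = 0.55).

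On chromosome 10, both members of chr10:66640530-66644032_F lay inside the span of probes of Jmjd1c, which encodes a protein of the histone demethylase family, on the same strand. The member at 66643905 to 66643964 stood at 0.36, 0.30 and 0.53 in WT and at -0.46, -0.36 and -0.30 in c-Maf KO. This was the tightest separation among the large differences, -0.77 ± 0.09 (95% interval -0.98 to -0.56), with the lowest adjusted p of any member in the value table (0.12) and an adjusted p of 0.016 with the variance trend. The member at 66643837 had -0.82 ± 0.28, with c-Maf KO replicate 3 at -0.03 beside a lowest WT sample of 0.03. The nearest Jmjd1c probe, 75086 bases from the first of these, had -0.04 (adjusted p = 0.84).

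Nearby regions on chromosome 1 had the same sign. The member on chr1:139847592-139848243_F stood at 0.17, 0.32 and 0.45 in WT and at -1.32, -0.35 and -0.17 in c-Maf KO, a difference of -0.93 ± 0.30. All 3 members of that region were below 0, at -0.93 to -0.75, and so were all 3 of chr1:139856545-139857204_F, at -0.74 to -0.50. Their nearest gene probe, for Gm34353 on the same strand, was above background on no array. On chr12:88216447-88224965_F, near Irf2bpl on the opposite strand, the difference of -0.81 ± 0.46 rested on WT replicate 3, which stood at 1.75 while the other WT samples stood at 0.20 and 0.03. The remaining members of the 8 largest were on chr9:65647428-65677009_F (-0.82) and chr12:52944867-52971992_R (-0.73), near Trip4 and Heatr5a, whose probes had 0.02 and -0.02. On the 5 arrays, without c-Maf KO replicate 1, the member on chr1:139847592-139848243_F had -0.58. There chr12:52944867-52971992_R had -0.54 and chr9:65647428-65677009_F -0.63, while the member near Irf2bpl had -0.85. Of the 53 members lower by over 0.5 without overlap, c-Maf KO replicate 3 was the highest c-Maf KO sample in 37, and the median log2 ratios over these 53 were -0.48, -0.35 and -0.09 in c-Maf KO replicates 1, 2 and 3.

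On the higher side, the largest difference was on chr3:95502970-95503399_R (95503032 to 95503091), 22897 bases from Adamtsl4 on the same strand. It stood at -0.23, -1.03 and -1.66 in WT and at 0.23, 0.41 and 0.46 in c-Maf KO. The difference was 1.34 ± 0.35 (95% interval 0.49 to 2.19; adjusted p = 0.26), and the other 2 probes of that region were no members. The member on chr3:127170996-127201096_F, inside the span of Ank2, an ankyrin gene on the opposite strand, stood at -0.14, -1.64 and -0.37 in WT and at 0.14, 0.66 and 0.74 in c-Maf KO (1.23 ± 0.41). Its region held another member that was lower without overlap, so the probes of that region disagreed.

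Regions on chromosomes 10, 15 and 7 had differences above 0 for all members of one strand. The 3 forward members of chr10:83181374-83249774 had 0.87 to 1.19, and the nearest gene probe, for 1500009L16Rik, was above background on no array. The member at 83224710 to 83224769 stood at -0.13, -1.45 and -0.92 in WT and at 0.34, 0.13 and 0.58 in c-Maf KO. The 2 reverse members of that region were at -0.59 and -0.11, the opposite sign. The chromosome 15 member A_30_P01019643 (32170366 to 32170425), printed above, stood at -0.16, -1.07 and -0.78 in WT and at 0.16, 0.26 and 0.34 in c-Maf KO, a difference of 0.92 ± 0.23. It lay 3 bases from the centre of a same-strand probe for Snhg18, a host gene of small nucleolar RNAs, and shared 57 bases with it. The Snhg18 probe itself had 0.70 with overlapping groups (limma adjusted p = 0.47). The overlapping members A_30_P01033043 and A_30_P01029468 shared 41 and 34 bases with the Snhg18 probe, so these probes partly read the same sequence. The 5 forward members of chr7:91558475-91733625 had 0.26 to 0.83, and the same-strand Gm2115 probe 2528 bases away from the largest had 0.95 (adjusted p = 0.30). The other 2 of the 8 were on chr6:34548561-34612216_F (0.84) and chr9:118291593-118324230_F (0.82 ± 0.15, adjusted p = 0.19), the latter 80323 bases from Eomes, a T-box transcription factor gene that was above background on no array.

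**Figure D4:**
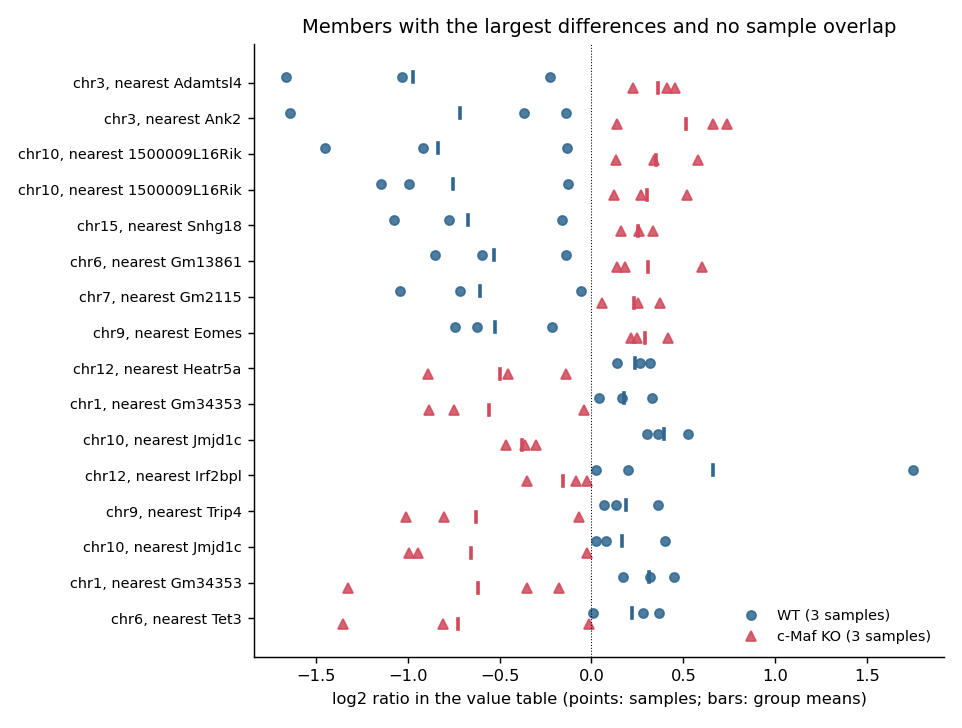
Log2 ratio in the value table (x axis) of 3 WT samples (circles) and 3 c-Maf KO samples (triangles) for the 16 members with the largest differences and no overlap between groups, labelled by chromosome and nearest gene probe; bars are group means. In the 8 higher members 1 WT sample lies close to 0, as at -0.23 in the top row, and in most lower members 1 c-Maf KO sample lies close to the WT samples.

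In all of these 8 higher members WT replicate 1 was the highest WT sample, and it was in 17 of the 27 members higher by over 0.5 without overlap. The list of 20 stromal genes, such as Col1a2, Sparc and Acta2, had the same order of samples: of 19 tested genes, 19 had a positive difference, 13 without overlap, 0 were called, and the mean log2 ratios were -0.06, -0.89 and -0.66 in WT replicates 1, 2 and 3 and 0.19, 0.19 and 0.51 in c-Maf KO replicates 1, 2 and 3. The part of stromal signal in the higher members was not tested. The macrophage list had a median difference of -0.20, with 14 of 16 genes negative and 0 called. Without overlap, 8 were lower and 1 higher (Lyz2, 0.33). Over all tested probes, 9.26% were lower and 10.2% higher without overlap.

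The calls made with the variance trend fell on 6 members in all. In the value table these were the chromosome 10 member above, a member on chr4:147105275-147171025_R and one on chr3:96205368-96217943_F, all lower. The chromosome 4 member stood at 0.26, 0.21 and 0.20 in WT and at -0.29, -0.25 and -0.20 in c-Maf KO (-0.47 ± 0.06; limma adjusted p = 0.036 with the trend and 0.13 without). The chromosome 3 member, 5705 bases from an opposite-strand probe for Terc, the telomerase RNA, stood at 0.22, 0.30 and 0.35 in WT and at -0.41, -0.26 and -0.22 in c-Maf KO (-0.58 ± 0.08; adjusted p = 0.036 and 0.13). On the 5 arrays the trend called other members, on chr2:128211990-128215223_R (higher), chr13:22110479-22116629_R and chr5:74487385-74497428_F (lower). In each of these, c-Maf KO replicate 1, which has no scanner file here, did not follow: it stood at -0.36, 0.06 and 0.20, within or beyond the WT samples on the other side, and the groups overlapped in the value table.

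Several members lay near probes of annotated noncoding genes. Of the 63 noncoding genes listed, 34 were tested, 13 with a positive and 21 with a negative difference, 6 higher and 5 lower without overlap, and 0 called. Their brightest were Neat1, Snhg15, Norad and Snhg6, with differences of -0.27, -0.11, -0.02 and 0.13 (limma adjusted p = 0.55, 0.52, 0.90 and 0.53). Within 10 kb of 21 of these genes lay 134 members, 82 on the gene's strand, with a median difference of -0.11, 27 lower and 7 higher without overlap (20.1% and 5.22%, all members 11.7% and 3.23%, all tested probes 9.26% and 10.2%).

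The brightest of them lay near the probe for Malat1, an abundant nuclear RNA. The 7 members on its strand lay 39 to 6554 bases from its probe, had levels of 0.52 to 7.95, and had differences of -0.31 to -0.0040, and all overlapped between groups. Their mean log2 ratios were -0.05, -0.0017 and 0.20 in WT and -0.22, -0.27 and 0.09 in c-Maf KO. The member at level 0.52 shared 39 bases in the sense direction with a probe named NEAT2. Whether the 7 lie within the Malat1 transcript was not determined. Near Neat1, the scaffold RNA of paraspeckles, 3 members of its strand 7707 to 8021 bases away had -0.55 to -0.47, all without overlap, with means of 0.23, 0.07 and 0.11 in WT and -0.44, -0.64 and -0.06 in c-Maf KO. The 12 members on the opposite strand had a median of -0.12.

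Beside Lncpint, 3 members of its strand had -0.61 to -0.43, all without overlap, with means of 0.09, 0.25 and 0.11 in WT and -0.41, -0.65 and -0.04 in c-Maf KO. The Lncpint probe itself had -0.53 (limma adjusted p = 0.30), and the member at -0.43 shared 53 bases with it. Beside Tug1 all 13 same-strand members were below 0, with a median of -0.10, 2 of them without overlap. Some of them shared bases with a Tug1 probe. The 5 members without a strand suffix, on chr17:12941161-12944859, lay 204 to 489 bases from a probe for Airn, the antisense RNA of the imprinted Igf2r locus, on its strand. Their differences were -0.42 to -0.31, and c-Maf KO replicate 3 was within the WT samples, so the groups overlapped. The Airn probe there had -0.35 (adjusted p = 0.55). Other Airn probes, further along the chromosome, had 0.05, -0.04 and -0.54 (limma adjusted p = 0.91, 0.88 and 0.50). On the 5 arrays, without c-Maf KO replicate 1, the median of these members was -0.15, against -0.37 in the value table. In the other direction, 3 members beside Morrbid, a noncoding RNA of short-lived myeloid cells, had 0.26 to 0.73, 2 without overlap. The 4 beside Snhg18, some of which shared bases with its probe, had 0.32 to 0.92, 3 without overlap. The 3 beside Norad, at levels of 4.39 to 5.14, had -0.02 to -0.0092.

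Of 1042 regions probed on both strands, 406 (39.0%) had members on both strands, 442 (42.4%) on one and 194 on neither. In the 406, the mean levels of the strands differed by a median of 1.52 (log2), and by more than 1 in 265, as a description of different probes and not of the amount of RNA from each strand. Across these regions the levels of both strands correlated weakly (r = 0.07), as did the differences (r = 0.09), as a description over regions of the same arrays. Both strands were below 0 in 179 regions, both above 0 in 56 and of opposite sign in 171.

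The regions whose dimmer strand was brightest included 3 on chromosomes 17, 15 and 7. The first, chr17:39960567-39992817, is named for a stretch that spans Rn45s-sharing members of other regions. These are the member printed above and one on chr17:39983902-39985688_F, which shared 60 bases with an Rn45s probe (-0.15 for both). Whether the members of chr17:39960567-39992817 read the same RNA was not tested. This region had 4 forward members at levels of 3.40 to 6.28 and 5 reverse members at 3.31 to 4.55. Its forward members had -0.17 to -0.11, 3 of them without overlap, and its reverse members -0.21 to 0.02, 1 of them without overlap. On chr15:51829797-51844247 the strands stood at 2.26 and 4.93, with -0.03 and -0.10. On chr7:108209996-108216032 the forward members stood at 1.22 and 3.01 and the reverse member, which shares bases with Rps29, at 8.54, with differences of -0.29, -0.09 and -0.03.

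Probes of the same region and strand resembled each other. In the 535 sets with 3 or more members, the median SD of the differences within a set was 0.10. The SD over the medians of these sets was 0.17, and that over all members 0.21. A median of SDs from small sets is not the same measure as a single SD. All members of the set were below 0 in 211 sets (39.4%), all above 0 in 53 (9.91%) and mixed in 271. Levels within a set spanned a median of 1.94 (log2). As region means, 260 of 2285 (11.4%) were lower and 80 (3.50%) higher without overlap, and the median was -0.06. Over all tested probes, taken singly, 9.26% were lower and 10.2% higher.

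The regions with the most members were on chromosomes 11, 8, 4 and 17. On chr11:95627874-95640824, 9 forward members lay 5 to 3064 bases from a probe of Zfp652, a zinc finger gene of the same strand, and 7 reverse members lay opposite it. The Zfp652 probe lay inside the region, had -0.15, and shared 55 and 29 bases with the forward members at levels 3.58 and 3.17. All 16 members were below 0, with medians of -0.16 on both strands and a lowest limma adjusted p of 0.16. Without overlap were 7 forward and 4 reverse members, where 9.26% of all tested probes were lower. Forward levels ran from -3.27 to 3.58. On chr8:72663625-72673010, which holds a forward-strand probe of Borcs8, the 8 forward members had a median of 0.09. Of these, 6 were above 0 and 2 higher without overlap (all tested probes 10.2% higher). The 8 reverse members had 0.06, 5 of them above 0.

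On chr17:26911397-26917047, where forward members lay 3715 to 4281 bases from a Crebrf probe, all 10 forward members were below 0 (median -0.16, levels -0.26 to 2.15, 2 without overlap), as were 4 of 4 reverse members (median -0.18, levels -3.51 to -2.83). On chr4:129497990-129515290, 26052 bases or more from Ptp4a2, a phosphatase gene, all 10 forward members were below 0 with a median of -0.25, but none without overlap. Their means were 0.06, -0.05 and 0.30 in WT replicates 1, 2 and 3 and -0.44, -0.27 and 0.20 in c-Maf KO replicates 1, 2 and 3.

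**Figure D5:**
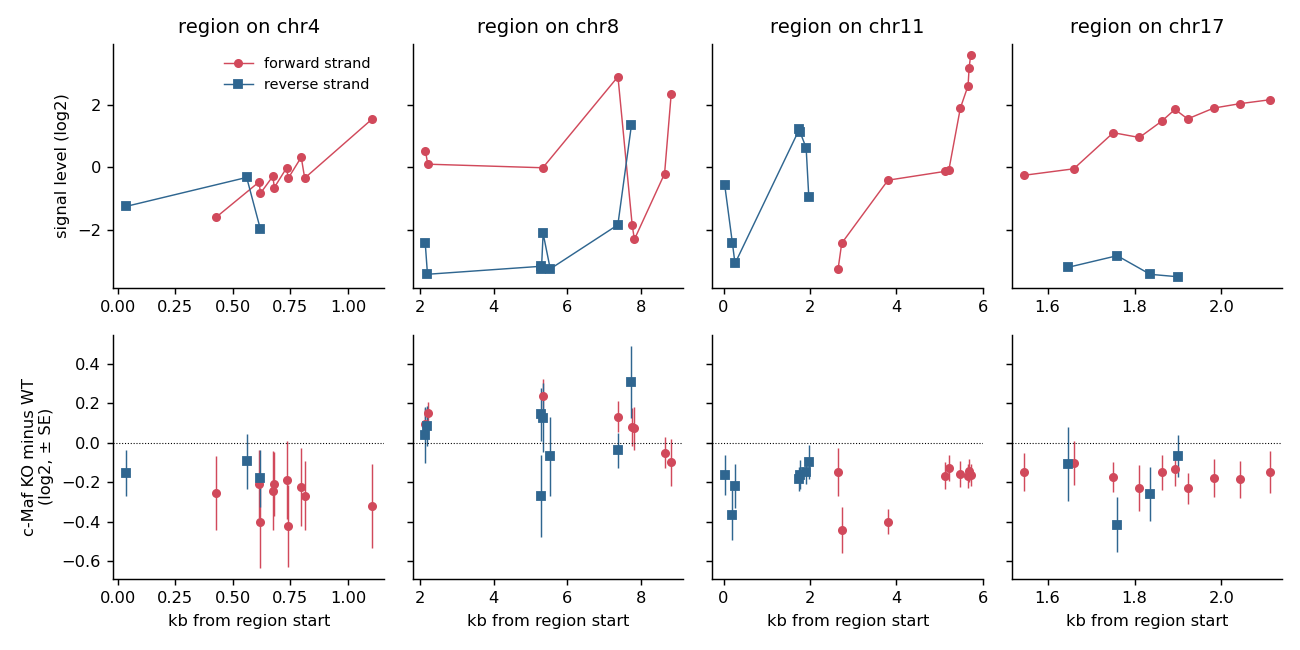
Signal level (top, log2 relative to the 75th percentile) and c-Maf KO minus WT difference (bottom, log2, bars are SE) of the members in the 4 regions with the most members, against distance from the region's start (x axis, kb), for the forward (circles) and reverse (squares) strand. All members of the chromosome 11 and 17 regions lie below 0, while those of the chromosome 8 region lie on both sides. A reverse member on chromosome 4 with no mapped position is not drawn.

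The distance to genes was read from the array's own probes. For 4260 members with a mapped position, the nearest probe of a named gene lay a median of 16.3 kb away, 1629 members (38.2%) lay within 10 kb of one and 416 lay over 100 kb from any. Between 2 probes of 1 gene lay 377 members (8.85%), 245 of them on its strand, so not all are intergenic by the array's own gene probes. These 377 had a median difference of -0.09 and the others -0.06. For same-strand neighbours the differences of member and gene probe correlated at r = 0.37 within 10 kb (n = 888), 0.17 from 10 to 100 kb (n = 838) and -0.02 beyond (n = 127). For opposite-strand neighbours the values were 0.11 (n = 458), 0.11 (n = 663) and -0.09 (n = 90). These describe probe pairs of the same samples, some of which share a gene or the same bases. Without pairs under 60 bases apart and members with a shared run, a choice made after seeing the data, the same-strand values were 0.33 within 10 kb (n = 810) and 0.17 from 10 to 100 kb (n = 820). Within 10 kb on the same strand the members' median was -0.07 and that of the gene probes 0.0012.

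Of 161 region probes that lay wholly in a RefSeq promoter window (250 bases before to 50 after a gene's start), 51 were members, 21 in the sense direction only, 28 in the antisense direction only and 2 both. The median difference of the 51 was -0.03, with 2 lower and 1 higher without overlap. Over all members 11.7% were lower and 3.23% higher, and over all tested probes 9.26% and 10.2%. Osbpl3, Fbrs and Mthfs were among the genes matched. For Fbrs, a sense probe had a level of 0.39 and antisense probes 1.76 and -3.95, with differences of -0.04, -0.09 and -0.03.

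Around Maf itself, 11 members lay within 1 Mb of its probe. The nearest, on chr8:118437894-118438330_R, 210218 bases away on the same strand, stood at levels of -3.78, -4.18 and -3.51 in WT and -3.57 and -3.92 in c-Maf KO. Its difference was 0.11 ± 0.19 (95% interval -0.37 to 0.58) with overlapping groups, beside -4.14 at Maf. The other 10, beside Cdyl2, a chromodomain gene, had differences of -0.09 to 0.21, and 1 of them, at 0.09 ± 0.06, was higher without overlap. The lowest adjusted p of the 11 was 0.52.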

How the data were processed

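Arrays were read from 5 scanner files (3 WT, 2 c-Maf KO). The spot intensity is the processed signal of Agilent Feature Extraction 10.7.3.1, background-subtracted by the authors per the file headers. The deposited value table holds, for 6 samples, a linear ratio per probe whose log2 has a median of 0 over the samples; how it was scaled is not stated. Its centred values correlated with those of the scanner files at r = 0.999 or above on each array. Here log2 intensity was set relative to each array's 75th percentile, and the table's ratio was taken to log2.

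Probes well above background on at least 2 arrays were tested with limma 3.58.1 (lmFit, eBayes; R 4.3.3), with Benjamini-Hochberg adjustment, in the value table (28280 probes) and on the arrays (28273). The fit was tested on simulated data. Samples of a group do not overlap where every c-Maf KO value lies on one side of every WT value. Members and gene lists were chosen with earlier results of these data known. Named members are those called, the 8 largest non-overlapping differences each way, the 8 brightest, the 4 regions bright on both strands (1 is not reported here), those at the limit of detection, the regions with most members and those within 1 Mb of Maf; members by the trend fit, Airn and Xist were added after their values were seen. Genes were named through RefSeq accessions (28348 probes) or names (3466). Alternatives covered normalization, background, filters, variance model, replicate block and left-out samples. Replicate numbers did not pair samples: deviations of same-numbered samples correlated at -0.0036, -0.05 and 0.08. Probe sequences are those of the array's files and promoter windows those of RefSeq (GRCm38.p6).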

Additional observations from a re-analysis of the deposited data

How the results depend on the processing

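The median difference of the members stayed below 0 under every normalization, scaling, background correction and left-out sample tried, from -0.08 to -0.05 without single samples in the value table and from -0.07 to -0.04 on the arrays. Calls of members moved from 0 to 3 in each source with the variance trend and robust fit, and to between 0 and 1 when single arrays were left out. That 1, called without c-Maf KO replicate 2, was on chr15:102920547-102933472_R, at 1.96 in replicate 3 and -0.08 in replicate 1. With the replicate block, 0 members were called in either source; on the arrays the block left 0 calls of any probe, against 7. Leaving out single samples gave 235 to 423 members higher (5.47 to 9.84%, all tested probes 13.1 to 21.8%) and 708 to 969 lower (16.5 to 22.5%, all tested probes 13.6 to 15.8%) without overlap, most in both directions without c-Maf KO replicate 3, as 2 samples against 3 separate more readily. Without WT replicates 1 and 3, which had the highest Xist (an alternative chosen after seeing the data), the median was -0.08. Members beside Maf changed sign in the value table when single samples were left out: A_30_P01027684 ran from -0.107 to 0.0213, A_30_P01031349 from -0.0774 to 0.27, A_30_P01019594 from -0.0361 to 0.0687, A_30_P01020606 from -0.105 to 0.126, A_30_P01022253 from -0.0736 to 0.0239, A_30_P01028637 from -0.0921 to 0.0528, A_30_P01030338 from -0.0187 to 0.141 and A_30_P01019173 from -0.0862 to 0.0191. With array weights A_30_P01022253 was at 0.0183. The cause was not tested. Over all tested probes, 6 calls in the value table became 50 with the variance trend, 31 without WT replicate 1 and 2 without c-Maf KO replicate 2 or 3, and 7 calls on the arrays became 123 with the trend, 22 with normexp background correction and 2 without any one WT replicate. The members were mostly dim, and their spread within groups was widest at the lowest signal.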
